A study of Akebia trifoliata with 9 samples.

Results

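The leaves compared here came from Akebia trifoliata plants that received simulated acid rain together with curcumin, and from plants that received distilled water. The libraries were chosen by their labels: 3 CUR50 and 3 Control libraries, 6 of the 9 in the series. CUR50 plants had curcumin at 50 µmol/L poured onto the roots, 500 mL a pot every 2 days, and acid rain of pH 2.0 sprayed on the foliage, until day 28. Control plants had distilled water both at the roots and as the spray, on the same schedule. The other 3 libraries of the series, CUR0, are from plants under the same spray that were given curcumin at 0 µmol/L, and their values are set beside the results without entering the fit. The groups compared differ in the spray and in the root treatment at once, so the parts of acid rain and of curcumin cannot be told apart from these 6 libraries. The series calls the libraries biological replicates. Its stated number of plants and number of replicates differ, so whether a library stands for 1 plant is unclear, and the SDs and p-values reflect only how these libraries vary, which may be partly technical.

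Akebia trifoliata is a woody climbing plant grown for its fruit and for medicinal use. Acid rain carries dissolved acids onto the leaf surface, where it can injure the epidermis, leach mineral ions and disturb photosynthesis, the main activity of leaf cells. Curcumin is the yellow polyphenol of turmeric, a compound known as an antioxidant. The RNA of a leaf is a mixture of the RNA of its cell types.

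Expression was given as TPM, a length-corrected abundance whose sum is the same in every library, so that a value is a share of the library. The table held 82321 genes of a transcriptome assembled from reads, under assembly identifiers that no file pairs with a gene name. A reference table of this species lists 32005 genes, and no identifier matched any of them. What the genes encode is therefore not stated, leaf marker genes could not be looked up, and only 2 identifiers that were higher and 2 that were lower are printed. Since TPM values do not record how many reads lie behind them, sequencing depth is unknown. Of the 82321 genes, 4426 were at 0 in all 6 libraries. Genes were tested if 3 or more of the 6 libraries had 1 TPM or more, which left 27117 genes with 97.6% to 98.0% of the TPM of a library.

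The number of genes at 1 TPM or more was 27373, 29744 and 29282 in CUR50 replicates 1, 2 and 3, against 28910, 29814 and 29514 in Control. The groups overlapped, and the means of 28800 ± 1257 in CUR50 and 29413 ± 460 in Control (SD, n = 3 each) gave an exact two-sided permutation p of 0.6. At 10 TPM or more the order was the other way, with 11074 ± 465 genes in CUR50 and 10536 ± 85 in Control (SD, n = 3 each). The libraries stood at 10628, 11038 and 11556 in CUR50 replicates 1, 2 and 3, against 10453, 10623 and 10533 in Control. Every CUR50 library had more genes than any Control library, but CUR50 replicate 1 was only just above Control replicate 2. The exact permutation p was 0.1, the smallest that 3 against 3 libraries can give. The 100 most abundant genes of a library held 45.4%, 42.3% and 38.1% of its TPM in CUR50, against 45.3%, 44.2% and 44.4% in Control (exact permutation p = 0.4). CUR50 replicates 2 and 3 lay below all Control libraries, and CUR50 replicate 1 lay just above the highest.

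The CUR50 libraries resembled each other less than the Control libraries did. Taken over genes, which are not independent of each other, the Pearson correlation of log2(TPM + 1) ran from 0.902 to 0.925 within CUR50 and from 0.951 to 0.957 within Control. Between a CUR50 and a Control library it ran from 0.863 to 0.908, so the ranges within CUR50 and between the groups overlapped. CUR50 replicate 2 stood nearest to Control, with correlations of 0.900 to 0.908 to the Control libraries of 0.902 to CUR50 replicate 1 and of 0.924 to CUR50 replicate 3. Its value differed by at least 1 on the log2 scale from the Control mean in 15.1% of the tested genes, against 21.3% for CUR50 replicate 1 and 20.1% for CUR50 replicate 3. CUR50 replicate 1 had more such genes below the Control mean, 3428, than above it, 2337, and CUR50 replicates 2 and 3 had slightly more above than below. For the median gene the SD in log2(TPM + 1) was 0.29 within CUR50 and 0.17 within Control, and the SD was larger in CUR50 for 71.9% of the tested genes. The 6 columns of values were all different.

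The comparison of CUR50 with Control asks what leaf expression looked like under acid rain with curcumin relative to plants given distilled water. It was tested with limma on log2(TPM + 1), with genes called at a Benjamini-Hochberg adjusted p under 0.05. A change was called for 2845 of the 27117 genes (10.5%): 1350 (4.98%) rose and 1495 (5.51%) fell. In bulk leaf tissue, fewer cells of a type and less RNA per cell cannot be told apart. The genes that rose did so by a median of 1.13 on the log2(TPM + 1) scale, with an interquartile range of 0.66 to 1.78. Those that fell had a median size of 1.24, with an interquartile range of 0.83 to 1.72. Large changes were few: 260 genes rose and 242 fell by at least 2, and 19 rose and 10 fell by at least 4.

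The number of calls depended on single libraries. Leaving out Control replicate 1, 2 or 3 left 24, 20 and 12 calls. With any library left out, the filter was redone on the rest, so here 24845, 24748 and 24780 genes were tested. The 936 genes at 1 TPM or more in every Control library and no CUR50 library, 577 of them called, could then not be tested. Leaving out CUR50 replicate 3 left 1179, and leaving out CUR50 replicate 1 or 2 gave 3155 and 3031. At an unadjusted p under 0.05, 7686 genes differed with all 6 libraries, and 4979, 4867 and 4686 without Control replicate 1, 2 or 3. With the replicate number as a block, 137 genes were called, 69 upward and 68 downward, although same-numbered libraries did not vary together. When the CUR0 libraries shared the spread estimate, 4344 genes were called, and 1480, 1326 and 1162 without Control replicate 1, 2 or 3.

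**Figure D1:**
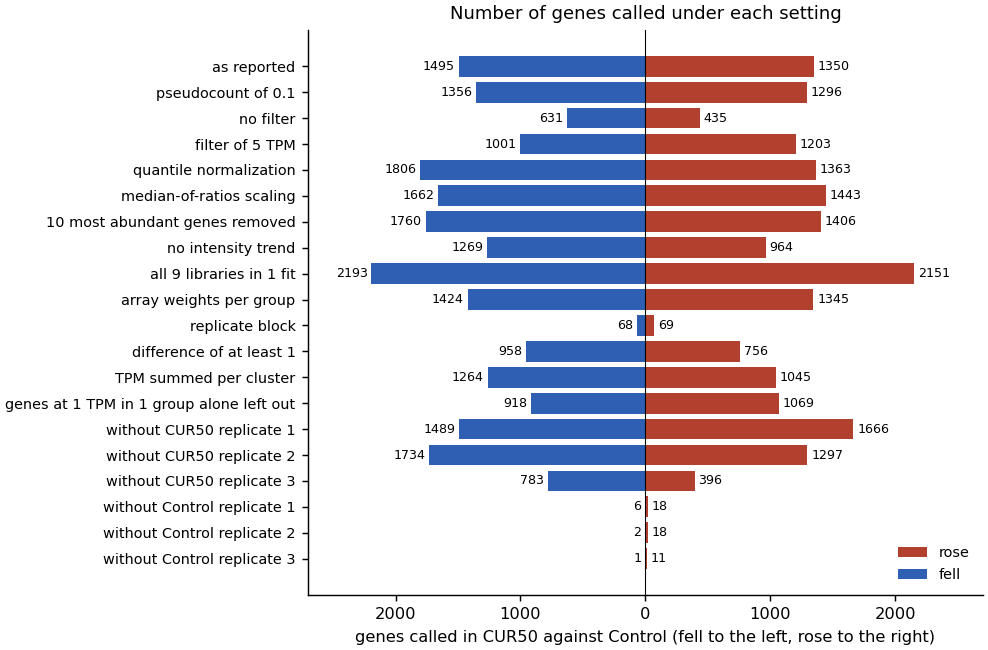
Number of genes called in CUR50 against Control under each setting (rows), with genes that fell to the left and genes that rose to the right. The bars nearly vanish without any 1 Control library, at 24, 20 and 12 genes, and with the replicate block, at 137. The filter was redone for each library left out, so genes at 1 TPM in the group of that library alone were no longer tested.

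Part of the calls followed from the filter. Of the tested genes, 522 had at least 1 TPM in every CUR50 library and less in every Control library, and 936 had the reverse pattern, so that these groups could not overlap. They held 281 and 577 of the calls. Among the other 25659 tested genes 1987 (7.74%) changed, 1069 upward and 918 downward, so the excess of genes that fell in the whole list turned to an excess of genes that rose. A filter of 5 TPM turned it too, with 1203 upward and 1001 downward. Quantile normalization, 1363 upward and 1806 downward, and median-of-ratios scaling, 1443 and 1662, did not.

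The calls were spread over all levels of expression. Of the 1061 genes that averaged 100 TPM or more over the 6 libraries, 91 rose and 111 fell, 19.0% in all. Of the 9805 genes averaging 10 to 100 TPM, 690 rose and 544 fell, 12.6% in all, but 607 rose and 798 fell after quantile normalization. Of the 14718 genes with 1 to 10 TPM, 513 rose and 672 fell. Of these calls 216 and 406 were genes that met the filter through 1 group alone, and the others turned the balance, with 297 that rose and 266 that fell. Of the 1533 genes below 1 TPM, 56 rose and 168 fell, and all of these met the filter through 1 group alone. The call rates by level depended on the intensity trend used in limma. Without it 46 genes rose and 65 fell at 100 TPM or more, and 363 and 309 at 10 to 100 TPM. Below 1 TPM 72 rose and 205 fell, then a larger share of the class than at 100 TPM or more. Among called genes the typical change was smaller at high levels, with medians of 0.75 upward and -0.72 downward at 100 TPM or more. At 1 to 10 TPM the medians were 1.64 and -1.72. Without the genes that met the filter through 1 group alone they were 1.31 and -1.28 there. The spread followed the same order. At 100 TPM or more the median SD was 0.20 in CUR50 and 0.10 in Control. At 1 to 10 TPM it was 0.38 in CUR50 and 0.24 in Control. Where the spread is larger, only larger differences tend to be called, and the part of this in the order of the medians was not tested. Of the 82 genes averaging 1000 TPM or more, 5 rose and 5 fell.

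**Figure D2:**
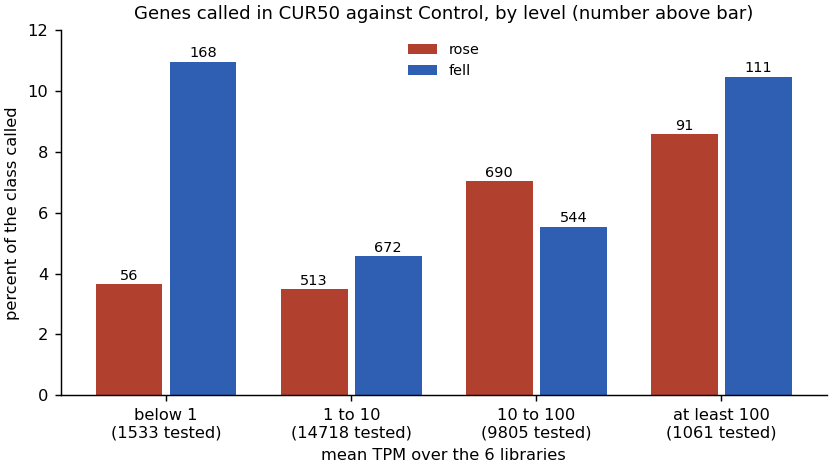
Percent of the tested genes of each level class (mean TPM over the 6 libraries) that rose or fell in CUR50 against Control, with the number of genes above each bar. Without the intensity trend in limma 46 rose and 65 fell at 100 TPM or more, and 72 rose and 205 fell below 1 TPM. Between 10 and 100 TPM 690 genes rose and 544 fell, though after quantile normalization 607 rose and 798 fell, and the excess of genes that fell at 1 to 10 TPM turned to 297 that rose and 266 that fell without the genes that met the filter through 1 group alone.

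**Figure D3:**
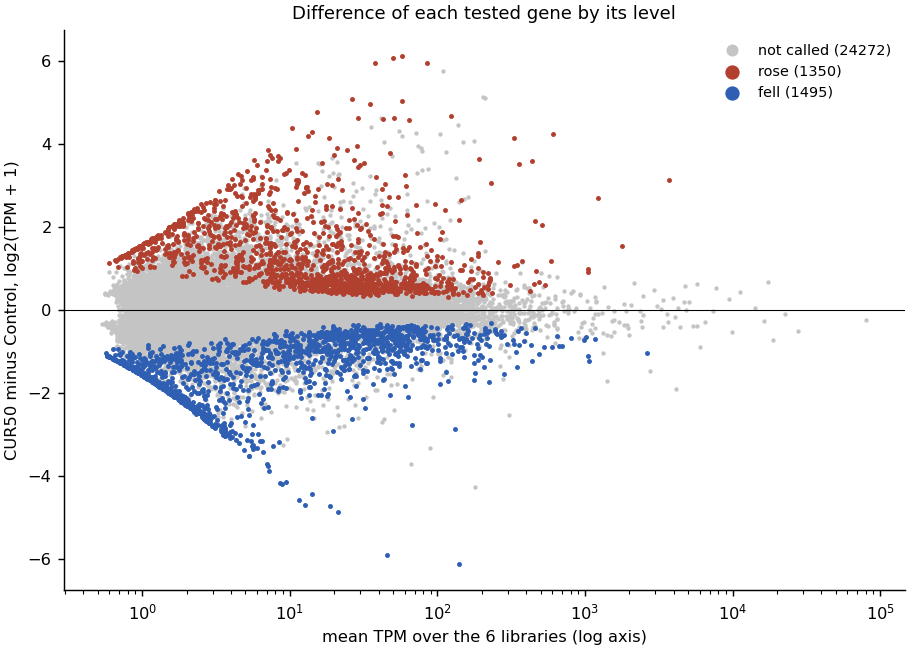
Difference between CUR50 and Control in log2(TPM + 1) of each of the 27117 tested genes against its mean TPM over the 6 libraries (log axis), with the 1350 genes that rose and the 1495 that fell in colour. Grey points at large differences are genes that were not called.

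Differences without a call were common. The 3 CUR50 values lay all above the 3 Control values in 5096 genes and all below them in 4493, together 35.4% of those tested, against 10.5% called. All 2845 called genes were among these, and 6744 genes without overlap were not called. A difference of at least 1 in either direction was found in 1782 genes upward and 1864 downward, of which 756 and 958 were called. Leaving aside the genes that met the filter through 1 group alone, the values did not overlap in 31.7%. The direction in which more genes separated depended on the scaling, with 4631 above and 5373 below after quantile normalization, although the median difference of all tested genes moved only from 0.02 to -0.01.

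The called genes were a modest part of the leaf RNA. The 1350 genes that rose made up 7.10%, 6.75% and 7.71% of all TPM in CUR50 replicates 1, 2 and 3, against 2.92%, 3.15% and 3.00% in Control. The 1495 genes that fell made up 3.68%, 3.96% and 3.47% in CUR50, against 6.71%, 6.86% and 7.17% in Control. Since the choice of genes used these libraries, the separation of the groups is no result in itself. The CUR0 libraries, which had no part in the choice, stood at 5.24%, 4.37% and 4.81% for the genes that rose and at 4.94%, 5.35% and 5.03% for those that fell. Choosing genes for a wide separation of CUR50 and Control by itself draws a group outside the choice inward, so the place of CUR0 is a description, and single genes differed from it.

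**Figure D4:**
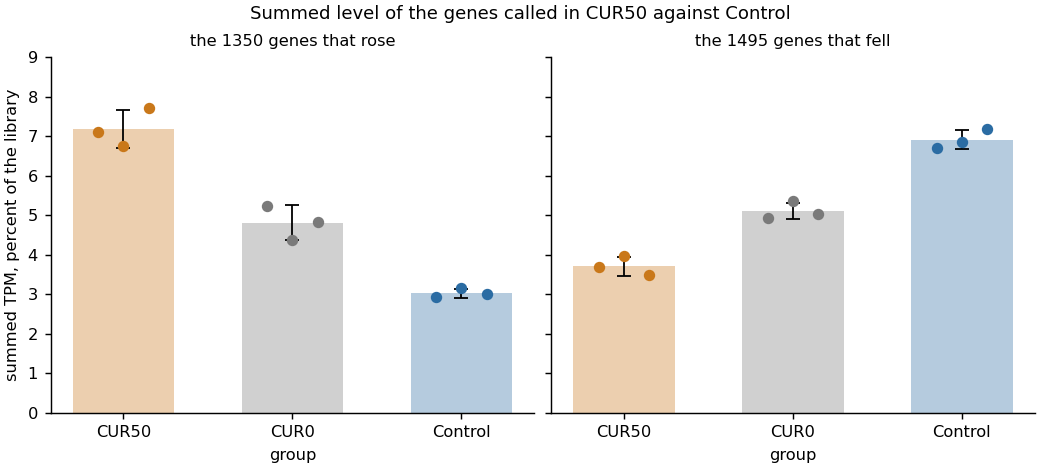
Summed TPM of the 1350 genes that rose and the 1495 that fell in CUR50 against Control, as a percent of each library (points), with the mean (bars) and SD (error bars, n = 3 each). The CUR0 libraries, not used to choose the genes, stand at 4.37% to 5.24% and at 4.94% to 5.35%, and the choice by itself draws them inward.

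Among the called genes, the gain was carried by fewer genes than the loss. Genes without a call also gained or lost TPM and are not counted here. The differences in mean TPM of the genes that rose summed to 4.16% of a library, of which the 10 largest gave 34.8% and a single gene 14.2%. Those of the genes that fell summed to 3.21%, of which the 10 largest gave 19.9% and the largest 5.43%. The largest 39 of the 1350 differences made up at least 50% of the gain, and the largest 79 of the 1495 made up at least 50% of the loss.

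The identifiers printed are the extremes of the genes that were called, did not overlap between the groups, reached a mean of 5 TPM in the higher group and were above 0 in some library of each group. In each direction they are the gene with the largest log2 difference and the gene with the largest difference in mean TPM, out of 1080 genes that rose and 896 that fell. The choice used the CUR50 and Control libraries, so the differences of either group from CUR0 are not independent of it. TRINITY_DN6222_c1_g1 is the single gene with the largest gain. It stood at 7384, 7011 and 5570 TPM in CUR50 replicates 1, 2 and 3, against 726, 875 and 658 TPM in Control. The groups lay far apart, and the lowest CUR50 library was several times the highest Control library. The means were 6655 ± 958 TPM in CUR50 and 753 ± 111 TPM in Control (SD, n = 3 each), a ratio of 8.84, and the gene rose by 3.14 ± 0.18 (SE) on the log2(TPM + 1) scale (limma adjusted p = 0.00281.) It took 0.665% of all TPM in CUR50 and 0.0753% in Control. The call held without each of the 6 libraries, with adjusted p up to 0.0468, and with the replicate block. In CUR0 the gene stood at 4601, 5446 and 4861 TPM, above all Control libraries and below all CUR50 libraries. The difference of CUR50 from CUR0 was 0.41 with a 95% interval of -0.23 to 1.06 (limma adjusted p = 0.402), and that of CUR0 from Control, which shares the Control libraries, was 2.73 (adjusted p = 0.000402).

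TRINITY_DN7407_c0_g2 had the largest log2 rise among the 1080 genes that met these conditions. It stood at 171, 67.9 and 59.5 TPM in CUR50, against listed values of 0 in Control replicates 1 and 2 and 1.27 TPM in replicate 3. All CUR50 libraries were high and no Control library reached 2 TPM, and CUR50 replicate 1 was well above the other CUR50 libraries. The difference was 6.09 ± 0.50 (SE) on the log2(TPM + 1) scale (limma adjusted p = 0.00488), and the call was lost without Control replicate 1 (0.058) or 2 (0.0563). No fold is given against a group listed mostly at 0. In CUR0 it stood at 135, 153 and 120 TPM, within the range of the CUR50 libraries. The difference of CUR50 from CUR0 was -0.61 with a 95% interval of -1.63 to 0.42 (adjusted p = 0.437), and that of CUR0 from Control was 6.70 (adjusted p = 0.000402). Its assembly cluster holds 1 other gene, which stood at 0, 12.5 and 4.97 TPM in CUR50, against 15.1, 28.9 and 24.5 TPM in Control. That gene was lower in every CUR50 library, with a difference of -2.41 on the log2(TPM + 1) scale (adjusted p = 0.151). Whether reads were divided between the genes of this cluster was not tested.

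TRINITY_DN13697_c0_g1 had the largest log2 fall among the 896 genes that met these conditions. It stood at 4.37, 9.36 and 0.06 TPM in CUR50, against 229, 261 and 341 TPM in Control. Every CUR50 library was low, and CUR50 replicate 3 was nearly at 0. The means were 4.60 ± 4.65 TPM in CUR50 and 277 ± 58 TPM in Control (SD, n = 3 each), so the Control mean was 60.3 times that of CUR50, or 125 times without CUR50 replicate 2 and 40.4 times without CUR50 replicate 3. The difference was -6.14 ± 0.80 (SE) on the log2(TPM + 1) scale (limma adjusted p = 0.0123.) The call was lost without Control replicate 1, 2 or 3, at 0.0741, 0.0841 and 0.0918, and with the replicate block, at 0.052. In CUR0 it stood at 2.98, 8.37 and 1.25 TPM, overlapping CUR50. The difference of CUR50 from CUR0 was -0.17 with a 95% interval of -2.60 to 2.26 (adjusted p = 0.944), and that of CUR0 from Control was -5.97 (adjusted p = 0.00162).

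TRINITY_DN21115_c0_g1, an abundant gene, had the largest fall in TPM among the same 896 genes. It stood at 1456, 2372 and 1434 TPM in CUR50, against 3512, 3480 and 3495 TPM in Control. The Control libraries were almost equal, and CUR50 replicate 2 lay nearest to them. The means were 1754 ± 536 TPM in CUR50 and 3495 ± 16 TPM in Control (SD, n = 3 each), a ratio of 0.502. The difference was -1.04 ± 0.22 (SE) on the log2(TPM + 1) scale (limma adjusted p = 0.0383.) This was the weakest of the 4 calls: it was lost without CUR50 replicate 1 (0.0676) or 3 (0.104), without Control replicate 1, 2 or 3 (0.135, 0.147 and 0.152), without a filter (0.0664) and with the replicate block (0.087). In CUR0 it stood at 3441, 4714 and 3975 TPM, with 1 library just below the Control libraries, 2 above them, and all above every CUR50 library. The difference of CUR50 from CUR0 was -1.23 with a 95% interval of -1.91 to -0.56. Adjusted over all genes its limma p was 0.124, and it was 0.0259 with all 9 libraries in 1 fit. The gene was chosen for low values in these CUR50 libraries, which by itself favours a difference of CUR50 from CUR0 in this direction. The difference of CUR0 from Control was 0.20 (adjusted p = 0.386).

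**Figure D5:**
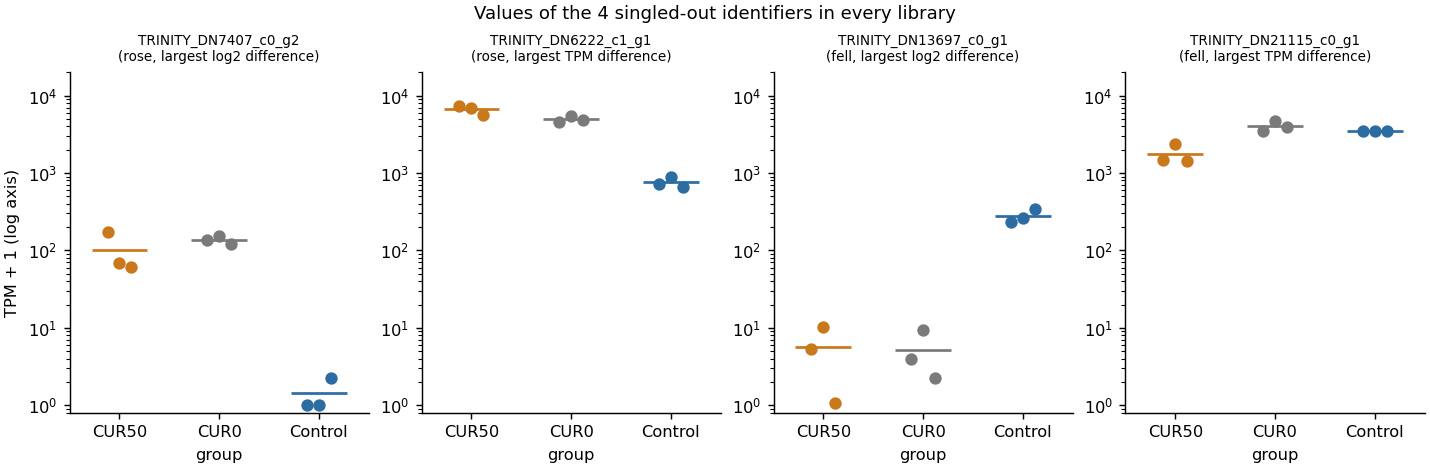
TPM + 1 (log axis) of the 4 printed identifiers in each library (points) of CUR50, CUR0 and Control, with the group mean as a line. CUR0 lies near CUR50 in the first 3 panels and near Control for TRINITY_DN21115_c0_g1, where CUR50 stands at 1434 to 2372 TPM.

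Across all tested genes, 42 (0.155%) were called between CUR50 and CUR0 in a fit of those 6 libraries, and 4470 (16.5%) between CUR0 and Control. The genes were those that met the filter in CUR50 and Control, so genes expressed only in CUR0 could not be called. How far these counts depend on single libraries is not given here, and a gene without a call is not shown to be unchanged. The median SD within CUR50 was larger than within Control, as given above, and its part in these numbers was not tested.

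Each CUR50 library was also set against the genes called from the other CUR50 libraries and the 3 Control libraries. Of the 3031 genes called without CUR50 replicate 2, its own value lay beyond all Control values in the called direction in 2607 (86.0%) and beyond them in the other direction in 147. In the called direction, the median difference from Control of the 3031 genes was 1.29 in the other CUR50 libraries and 0.72 in replicate 2. In each of these checks the other CUR50 libraries had a part in choosing the genes, which by itself makes their median larger. Of the 3155 genes called without CUR50 replicate 1, 2750 (87.2%) lay beyond the Control values in replicate 1, with medians of 0.96 in the others and 0.70 in replicate 1. Of the 1179 genes called without CUR50 replicate 3, 1142 (96.9%) did so in replicate 3, with medians of 1.38 in the others and 1.38 in replicate 3. The Control libraries were shared between the choice of these genes and the check. The percentages therefore describe these libraries and are not independent of the calls or of the filter. No such percentage over all tested genes is given for a single CUR50 library. Separation was common in general: all 3 CUR50 values lay on 1 side of all Control values in 35.4% of the tested genes. That share asks for all 3 CUR50 libraries, on either side, so it is no background for the percentages of a single library.

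Some genes were listed at 0 throughout 1 group. Of the 27117 tested genes, 371 were at 0 in all CUR50 libraries with at least 1 TPM in every Control library. Another 143 were at 0 in all Control libraries with at least 1 TPM in every CUR50 library. They are part of the 936 and 522 genes that met the filter through 1 group alone. The first set had a median of 2.45 TPM in Control, and the second a median of 3.09 TPM in CUR50, so most had low values, and an exact 0 in a table without counts can be a failed estimate. At a minimum of 5 TPM in every library of the other group, 18 and 8 genes remained. The first set summed to 1140, 1366 and 1216 TPM in Control replicates 1, 2 and 3, and to 163, 148 and 165 TPM in CUR0. The second summed to 793, 740 and 778 TPM in CUR50 and to 403, 373 and 335 TPM in CUR0. Choosing genes by their CUR50 and Control values by itself draws CUR0 inward here too. Above 0 TPM there were 54712 ± 1850 genes in CUR50 and 57007 ± 966 in Control (SD, n = 3 each; exact permutation p = 0.3), and the part of sequencing depth in these zeros was not tested.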

How the data were processed

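RNA was sequenced from leaves of plants of the CUR50, CUR0 and Control groups, in 3 libraries each by the labels. The authors deposited TPM values rounded to 2 decimals, and every column sums to nearly the same total, between 999997 and 1000003. Per the submitters' processing notes, the tools included fastp, RSEM, Bowtie2 and DESeq2; no version, assembler setting or filter is stated in the labels. All 82321 identifiers have the form of the Trinity assembler. Columns were matched to libraries by title, 2 Control columns lacking a letter, and none was left over.

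The test was limma 3.58.1 (eBayes with an intensity trend) on log2(TPM + 1), fitted to the 6 CUR50 and Control libraries (4 residual degrees of freedom, prior 2.27), for genes at 1 TPM or more in 3 or more of them, with Benjamini-Hochberg adjustment over 27117 genes. Differences on this scale understate the change of low genes. No count test was possible, since TPM keeps no read number. CUR50 against CUR0 and CUR0 against Control were fitted likewise on the same genes. Single values per library were compared by exact two-sided permutation tests. The libraries, tests, alternatives and the rule for identifiers were chosen with earlier results of these data known. The test was checked on simulated data in which both groups had the same spread and genes varied independently. That check does not cover the larger spread within CUR50 found here. R 4.3.3, version 1.17.8 of data.table, Python 3.11.15 and matplotlib 3.10.9 were used.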

Additional observations from a re-analysis of the deposited data

How the results depend on the processing

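TPM values give no depth, so counting error is unknown and low values are the least certain. The number of genes changed in CUR50 against Control was 1066 without a filter (435 up, 631 down), 4344 with all 9 libraries in 1 fit (2151 up, 2193 down), 137 with the replicate block (69 up, 68 down) and 1714 when a difference of at least 1 was also asked for (756 up, 958 down). It stayed within 1.5 times of 2845 with a pseudocount of 0.1, a filter of 5 TPM, each of the 3 scalings, no intensity trend, array weights per group and TPM summed per cluster. Without the genes at 1 TPM in 1 group alone 918 genes fell. Leaving out 1 of the 6 libraries, with the filter redone on the rest, gave 12 to 3155 genes, 11 to 1666 up and 1 to 1734 down. With the CUR0 libraries in the fit it gave 1162 to 4805 genes, beside 4344 with all libraries. With array weights per group it gave 21 to 1680 genes, beside 2769, the lowest being without CUR50 replicate 3. Leaving out libraries in these 2 kinds of fit, and the count without the genes at 1 TPM in 1 group alone, were chosen after seeing the data. The cause was not tested. Same-numbered libraries did not vary together (correlations of their deviations -0.0043, -0.0090 and -0.033 for numbers 1, 2 and 3), and the block lowers the residual degrees of freedom from 4 to 2. The difference of TRINITY_DN21115_c0_g1 between CUR50 and CUR0, -1.23, passed the threshold with all 9 libraries in 1 fit. That of TRINITY_DN13697_c0_g1 turned to 0.77 and 0.38 without CUR50 replicate 3 or CUR0 replicate 2, and leaving out 1 library gave -0.88 to 0.77. The mean difference in genes detected per library, -613 at 1 TPM, was 538 at 10 TPM, and ran from -1085 to 100.3 over the libraries left out.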

Other observations

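Genes of 1 assembly cluster, grouped here by the shared part of their identifiers, did not always move together between CUR50 and Control. The tested genes fell into 22120 clusters, of which 3923 held several tested genes. Genes of these clusters were called in 10.2% of cases, and genes alone in their cluster in 10.6%. In 82 clusters at least 2 genes were called: in 20 all of them rose, in 38 all fell, and in 24 some rose and others fell. On summed values limma called 2309 of 24049 clusters (9.60%), with 1045 higher and 1264 lower in CUR50. The filter was applied to the sums here, so these clusters include some that held no tested gene.

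Values listed at 0, which in a table without counts can be failed estimates, were unevenly spread over the CUR50 libraries. Of the 13437 genes with at least 5 TPM in every Control library, 95, 31 and 70 were listed at 0 in CUR50 replicates 1, 2 and 3. Of the 13052 genes with at least 5 TPM in every CUR50 library, 29, 22 and 19 were listed at 0 in Control replicates 1, 2 and 3. CUR50 replicate 2, the library nearest to Control by correlation, had the fewest such genes of its group. The part of sequencing depth in these numbers was not tested.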
